A study of Mus musculus with 6 samples.

Results

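Heterochromatin silencing keeps repeats, germline genes and other unwanted transcripts off in every cell. The proteins of the machinery work in sequence. KRAB zinc finger proteins bind DNA and recruit the corepressor KAP1, which brings in an enzyme that methylates histone H3 on lysine 9 (H3K9), and the chromodomain proteins of the HP1 family then read that mark and compact the chromatin. Other branches add histone H3.3 to silent repeats, spread the H3K9 mark over transposons, or copy DNA methylation after replication. This account follows 10 genes of this machinery through 1 comparison. They are Trim28, Mphosph8, Cbx1, Cbx3, Cbx5, Atrx, Daxx, Morc3, Smchd1 and Uhrf1, chosen by symbol, and all 10 were found among the 24421 gene rows of the count table.

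The study sequenced RNA of bone marrow cells without lineage markers and with the receptor c-Kit (LK cells), the stem and progenitor compartment, from C57BL/6 mice. One group carried a knock-in of mutant ASXL1 (ASXL1-MT-KI) and the other was wild type (WT). ASXL1 is a chromatin regulator mutated in myeloid malignancies. The mice were littermates aged 8 to 12 weeks, no treatment is listed, and each group had 3 numbered libraries. The labels give neither the locus of the knock-in, the mutation, a Cre driver nor the number of animals per library, so the p-values below measure the spread between these libraries. The libraries held 40462168 to 47579480 gene counts. Asxl1 itself was at 320.1 ± 8.71 CPM (counts scaled to library size) in ASXL1-MT-KI and 170.4 ± 5.43 CPM in WT (SD, n = 3 each), 1 value that does not separate the knock-in allele from the endogenous gene. Kit, the receptor that defines the gate, averaged 394.6 CPM over the 6 libraries, and of 8 T and NK cell markers Cd3g had 0 counts in all of them, Cd3e had 0 summed counts in ASXL1-MT-KI and 3 in WT, while Cd4 had 234 in ASXL1-MT-KI and 154 in WT and Nkg7 averaged 173.4 CPM.

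None of the 10 genes passed the test of ASXL1-MT-KI against WT. All of them had enough counts to be tested. The fold changes lay between 0.904 for Trim28 and 1.13 for Cbx5, and the 95% intervals of all 10 lay between differences of -16.7% and 23.9% from the WT level. The test was edgeR's quasi-likelihood test with Benjamini-Hochberg adjustment over all 13548 tested genes at 0.05, and it called 16.0% of those genes and 12.7% of the 3387 tested genes with the highest mean CPM, where 8 of the 10 stood. By limma-voom 0 of the 10 passed and by DESeq2 2 did, beside 16.0% and 17.6% of all genes. At an unadjusted p under 0.05 there were 4, beside 30.4% of all genes. The median absolute log2 fold change was 0.063 over the 10 genes, 0.077 over those 3387 genes and 0.13 over all tested genes.

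With the replicate number as a block, 3 of the 10 passed, beside 30.5% of all genes. Cbx5 and Morc3 rose and Trim28 fell. No label says that equal numbers share a litter or a day. The pairing was read from these same counts, as deviations from the group means correlated at 0.253, 0.162 and 0.391 between libraries numbered 1, 2 and 3 alike. WT 2 correlated as closely with ASXL1-MT-KI 1 (0.163) as with ASXL1-MT-KI 2, so the pairing of number 2 is not clear. The calls with the block depend on this pairing. In 4 of the 10 genes (Trim28, Mphosph8, Cbx5 and Morc3) the 3 CPM values of ASXL1-MT-KI did not overlap the 3 of WT, beside 35.2% of all tested genes. In a bulk sample, fewer cells of a type and less RNA per cell cannot be told apart.

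**Figure D1:**
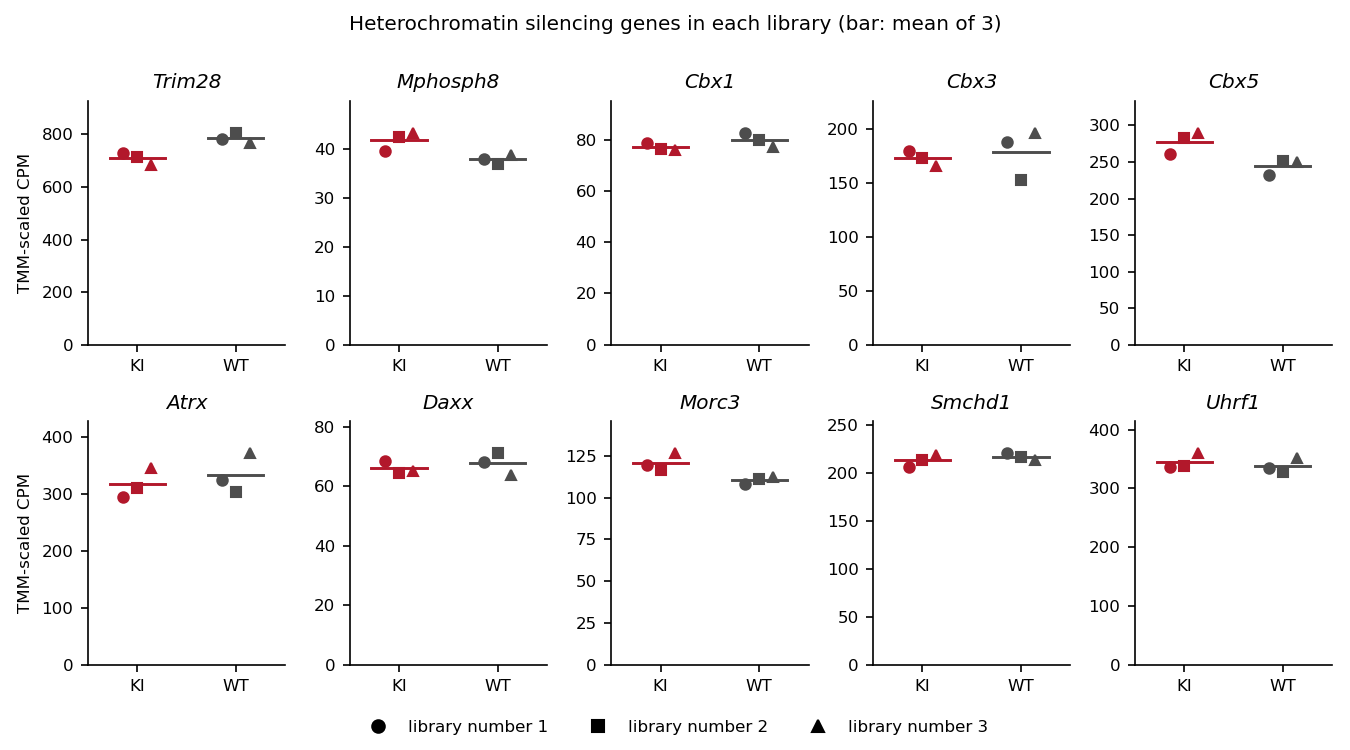
TMM-scaled CPM (vertical axes, each from 0) of the 10 genes in the 3 ASXL1-MT-KI libraries (KI, left) and the 3 WT libraries (right), with the symbol giving the library number and the bar the mean. The groups lie apart in Trim28, Mphosph8, Cbx5 and Morc3 and overlap in the other genes.

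**Figure D2:**
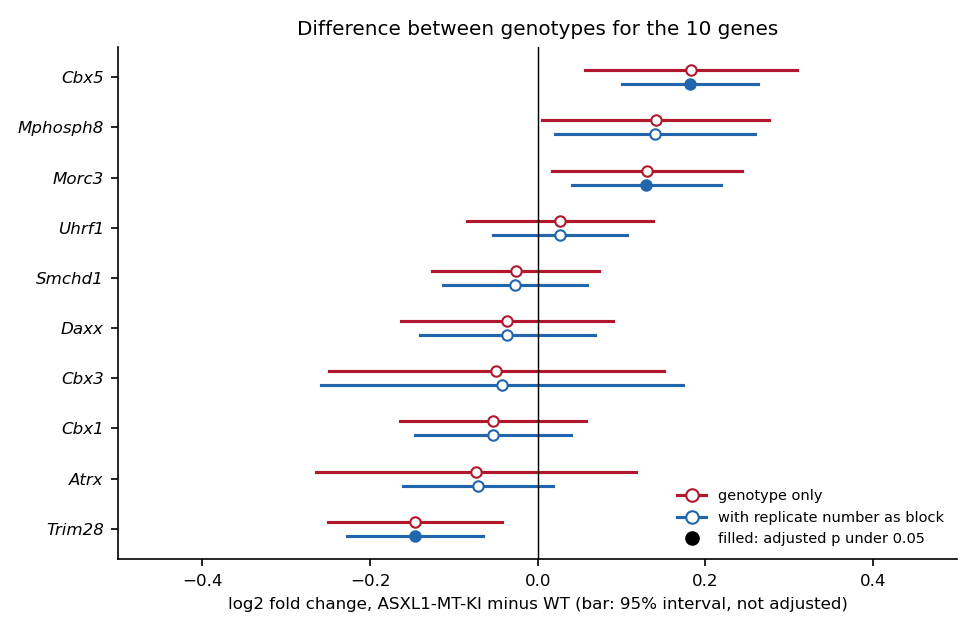
Log2 fold change of each gene, ASXL1-MT-KI minus WT (horizontal axis), with its unadjusted 95% interval, from the fit with genotype only and the fit with the replicate number as a block. Filled points pass an adjusted p of 0.05, and these are Cbx5, Morc3 and Trim28 in the blocked fit.

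The promoters of 3 genes are printed here: Trim28 and Cbx5, which had the largest differences in each direction, and Uhrf1, which is expressed in step with DNA replication. Each is the 250 bases before a RefSeq start on GRCm38.p6, 5′ to 3′ on the strand of the gene. Capitals mark matches, on either strand, to any of 5 motifs: the GC box, with the letters GGGCGG; the CCAAT box, named for its letters; the letters CCGGAAG known from ETS factor sites; the TATA box, spelled TATAAA here; and the letters TTTCGCGC or TTTGGCGC known from E2F factor sites. Trim28 lies at chr7:13023902-13024151 on the plus strand. The first of the 2 Cbx5 starts lies at chr15:103239853-103240102 on the minus strand, and the second of the 2 Uhrf1 starts at chr17:56304063-56304312 on the plus strand.
Trim28: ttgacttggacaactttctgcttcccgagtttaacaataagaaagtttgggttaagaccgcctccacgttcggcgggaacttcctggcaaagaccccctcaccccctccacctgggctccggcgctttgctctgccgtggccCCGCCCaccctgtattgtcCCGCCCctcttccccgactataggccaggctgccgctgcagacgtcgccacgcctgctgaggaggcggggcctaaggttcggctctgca
Cbx5: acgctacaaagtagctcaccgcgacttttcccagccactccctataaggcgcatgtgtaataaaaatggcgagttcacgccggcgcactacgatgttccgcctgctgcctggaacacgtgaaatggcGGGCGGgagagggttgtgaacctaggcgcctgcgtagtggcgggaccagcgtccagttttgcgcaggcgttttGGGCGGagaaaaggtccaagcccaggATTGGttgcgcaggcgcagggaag
Uhrf1: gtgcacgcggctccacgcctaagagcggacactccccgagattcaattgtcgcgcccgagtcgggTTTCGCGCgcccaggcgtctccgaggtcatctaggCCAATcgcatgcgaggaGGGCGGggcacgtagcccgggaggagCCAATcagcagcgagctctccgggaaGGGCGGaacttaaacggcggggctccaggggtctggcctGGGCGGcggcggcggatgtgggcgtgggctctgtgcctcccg
The Trim28 window held 2 GC boxes and no other match. The Cbx5 window held 2 GC boxes and 1 CCAAT box. The Uhrf1 window held 3 GC boxes, 2 CCAAT boxes and 1 match to the E2F letters. Of 32851 such windows in the RefSeq table, 32.7% hold a GC box, 33.8% a CCAAT box and 0.654% the E2F letters. A match is only a match of letters. CG dinucleotides numbered 17, 22 and 30 in the Trim28, Cbx5 and Uhrf1 windows, against a median of 6 over the table. The window of the other Cbx5 start, not printed, held 1 GC box, no CCAAT box and 7 CG dinucleotides. That of the other Uhrf1 start held 1 GC box, 1 CCAAT box and 10 CG dinucleotides, without the E2F letters.

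Trim28 encodes KAP1 and spans 12999114 to 13031035 on chromosome 7 (GRCm38, the assembly that mm10 names, as all gene positions here), an annotated span that begins before the promoter printed above. It was the most abundant of the 10, at rank 136 of the 13548 tested genes. It stood at 731, 715 and 683 CPM in ASXL1-MT-KI libraries 1 to 3, against 783, 807 and 767 CPM in WT libraries 1 to 3. All 3 knock-in values lay below all 3 WT values. The log2 fold change was -0.15 ± 0.046 (SE; 95% interval -0.25 to -0.042), with an adjusted p of 0.062 by edgeR, 0.0372 by DESeq2 and 0.00846 in edgeR with the block. Without WT replicate 3 the edgeR adjusted p was 0.0400, and on leaving out any other library it lay between 0.102 and 0.195. Scaled by total counts, which moved the median of all genes to 0.053, the log2 fold change was -0.095 and the adjusted p 0.141.

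Mphosph8 encodes MPP8, the chromodomain subunit of the HUSH complex, which binds methylated H3K9 and spreads it over young transposons. It spans 56668248 to 56697430 on chromosome 14. It was at 39.5, 42.5 and 43.3 CPM in ASXL1-MT-KI, against 37.9, 36.9 and 38.8 CPM in WT. The knock-in values were the higher ones, with the nearest pair of values less than 1 CPM apart. The log2 fold change of 0.14 ± 0.060 did not pass (edgeR adjusted p = 0.149; 0.072 with the block). An antisense gene, Gm16973, overlaps 10.7% of its annotated exon bases, and the library kit named in the labels does not mark strand, so reads of the 2 genes cannot be told apart there.

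The HP1 proteins are encoded by Cbx1 (HP1 beta), Cbx3 (HP1 gamma) and Cbx5 (HP1 alpha). All have a chromodomain that reads methylated H3K9 and a chromoshadow domain that pairs them and docks partners such as KAP1. Cbx5, on chromosome 15 from 103191544 to 103239816, was at 260.3, 282.4 and 290.0 CPM in ASXL1-MT-KI, against 231.8, 251.8 and 250.2 CPM in WT. The groups did not overlap, and each knock-in library exceeded the WT library of its number. Its log2 fold change was 0.18 ± 0.056 (95% interval 0.056 to 0.31), with an adjusted p of 0.0564 by edgeR, 0.0439 by DESeq2 and 0.00196 in edgeR with the block. Without WT replicate 3 the edgeR adjusted p was 0.0476, and without ASXL1-MT-KI replicate 2 it was 0.201. Scaled by total counts, which moved the median of all genes to 0.053, the log2 fold change was 0.23 and the edgeR adjusted p 0.0297.

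Cbx1, on chromosome 11 from 96789127 to 96808640, was at 78.6, 76.2 and 76.1 CPM in ASXL1-MT-KI, against 82.6, 80.0 and 77.0 CPM in WT. The ranges overlapped (log2 fold change -0.054, 95% interval -0.16 to 0.057; edgeR adjusted p = 0.51). Cbx3, on chromosome 6 from 51470360 to 51483704, was at 180.0, 173.6 and 166.1 CPM in ASXL1-MT-KI, against 188.2, 152.9 and 196.9 CPM in WT. WT replicate 2 was the lowest of the 6 libraries and WT replicate 3 the highest, so both ends of the range were WT. The log2 fold change was -0.05, with the widest interval of the 3 paralogs, -0.25 to 0.15 (edgeR adjusted p = 0.758), and it was 0.00 with total counts and 0.023 without WT replicate 3. Cbx3 has processed pseudogenes: 28.9% of the 50-base words of its longest coding transcript also occur in transcripts of 16 other annotated genes. For Cbx1 this share was 0% and for Cbx5 0.023%. How the authors counted reads that match several genes is not given in the sources used here, so the Cbx3 level is uncertain.

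Counts per kilobase of the longest transcript allow the paralogs to be set beside each other within a library, whatever the library scaling. Cbx3 made up 48.1% ± 1.45 of HP1 transcripts in ASXL1-MT-KI and 49.8% ± 3.68 in WT (SD, n = 3 each). Cbx1 made up 26.3% ± 0.332 in ASXL1-MT-KI and 27.5% ± 2.07 in WT. The share of Cbx5 was 23.8%, 26.0% and 27.1% in ASXL1-MT-KI libraries 1 to 3, against 21.0%, 25.0% and 22.2% in WT libraries 1 to 3. It was higher in the knock-in library of each of the 3 numbers, by 2.90 percentage points on average, but the groups overlapped. An exact two-sided permutation test gave p = 0.2 for Cbx5, p = 0.4 for Cbx1 and p = 0.5 for Cbx3, where 3 libraries against 3 cannot give less than 0.1. These levels rest on the length used. The longest transcripts of Cbx3 and Cbx1, of 2926 and 2377 bases, exceed their longest coding ones, of 1889 and 1824 bases. For Cbx5 both have 8803 bases. Shares by coding length were not computed. With the union of exons as the length, an alternative chosen after seeing the data, Cbx3 made up 37.2% ± 1.59 in ASXL1-MT-KI and 39.4% ± 3.53 in WT, Cbx5 39.6% ± 2.06 in ASXL1-MT-KI and 35.9% ± 2.59 in WT, and Cbx1 23.2% ± 0.532 in ASXL1-MT-KI and 24.7% ± 1.60 in WT. With the ratio of Atrx to Daxx, 4 such tests were run, and the Benjamini-Hochberg adjusted p was 0.667 for each of the 3 shares.

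**Figure D3:**
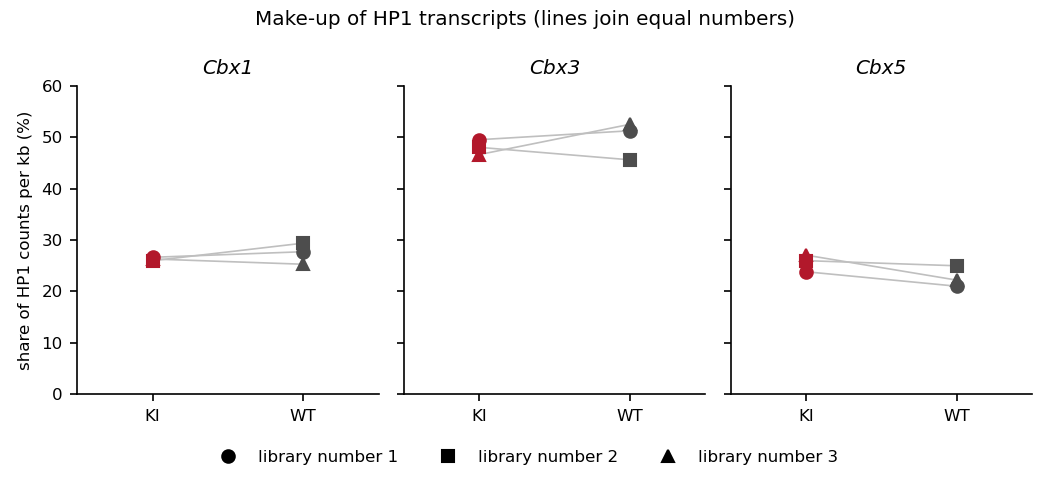
Share of Cbx1, Cbx3 and Cbx5 in the summed HP1 counts per kilobase of the longest transcript (vertical axis, percent) in each ASXL1-MT-KI (left) and WT (right) library, with lines joining libraries of equal number. With this length Cbx3 holds 45.6% to 52.5% in the 6 libraries (35.3% to 41.8% with the union of exons), and the Cbx5 line falls toward WT for all 3 numbers.

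Cbx3 and Cbx5 each lie back to back with an hnRNP gene, a family of RNA-binding proteins of splicing. The RefSeq starts of Cbx3 and Hnrnpa2b1 are 722 bases apart and those of Cbx5 and Hnrnpa1 545 bases apart, on opposite strands. Daxx has such a neighbour as well, the non-coding BC051226 at 267 bases, and 19.6% of the 10185 tested genes with a RefSeq start have one within 1000 bases. Hnrnpa1 was at 32.4 ± 3.55 CPM in ASXL1-MT-KI and 36.1 ± 3.39 CPM in WT (log2 fold change -0.15, edgeR adjusted p = 0.315), so its estimate has the opposite sign to that of Cbx5. Hnrnpa2b1 was at 1243 ± 16.4 CPM in ASXL1-MT-KI and 1314 ± 82.9 CPM in WT (log2 fold change -0.08, edgeR adjusted p = 0.347). Neither passed the threshold. Hnrnpa1 also has many processed copies, and its counts are uncertain for the same reason as those of Cbx3.

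ATRX, a chromatin remodeller, and DAXX, a histone chaperone, form the complex that deposits histone H3.3 at telomeres and silent repeats. Atrx, on chromosome X from 105797615 to 105929403, was at 294, 310.4 and 345 CPM in ASXL1-MT-KI, against 324, 303 and 372 CPM in WT. Library number 3 was the highest in both groups. The log2 fold change was -0.073 ± 0.084 (95% interval -0.26 to 0.12; edgeR adjusted p = 0.609), and 0.013 without WT replicate 3. Daxx, on chromosome 17 from 33909414 to 33915590, was at 68.4, 64.6 and 65.3 CPM in ASXL1-MT-KI, against 68.3, 71.2 and 63.9 CPM in WT. The ranges overlapped almost fully, and the log2 fold change of -0.037 (95% interval -0.16 to 0.09; edgeR adjusted p = 0.714) was 0.015 with total counts. The log2 ratio of Atrx to Daxx counts was 2.26 ± 0.15 in ASXL1-MT-KI and 2.29 ± 0.228 in WT (exact two-sided permutation test, p = 1, n = 3 each).

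Morc3 and Smchd1 encode ATPases of the GHKL type that hold silent chromatin compact. MORC3 binds histone H3 and silences retroviral repeats, and SMCHD1 acts on the inactive X chromosome, imprinted genes and clustered protocadherins. Morc3, on chromosome 16 from 93832121 to 93876073, was at 119.6, 116.3 and 126.7 CPM in ASXL1-MT-KI, against 108.0, 110.9 and 112.4 CPM in WT. All knock-in values were above all WT values. The log2 fold change was 0.13 ± 0.050 (95% interval 0.017 to 0.24), with an edgeR adjusted p of 0.114, of 0.028 with the block and of 0.0433 with total counts. Smchd1, on chromosome 17 from 71344489 to 71475343, was at 206.6, 213.8 and 219.0 CPM in ASXL1-MT-KI, against 220.8, 216.5 and 213.9 CPM in WT. The ranges overlapped, and the log2 fold change of -0.026 (95% interval -0.13 to 0.073; edgeR adjusted p = 0.743) was 0.026 with total counts.

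Uhrf1 encodes the protein that reads hemimethylated DNA behind the replication fork, together with methylated H3K9, and calls in the maintenance methyltransferase DNMT1. It spans 56303321 to 56323486 on chromosome 17. It was at 335.9, 338.6 and 360.2 CPM in ASXL1-MT-KI, against 334.9, 328.5 and 352.4 CPM in WT. Each knock-in library was slightly above the WT library of its number, while the ranges overlapped. The log2 fold change was 0.027 (95% interval -0.085 to 0.14; edgeR adjusted p = 0.771; 0.642 with the block). A share of 18.9% of its 50-base words occurs in 2 other annotated genes, mostly in Gm5648. Of 23 DNA replication genes, Cdc6 rose (log2 fold change 0.25, edgeR adjusted p = 0.042) and Pola1 fell (-0.18, edgeR adjusted p = 0.0278), with a median of -0.0054 over the list. The Cdc6 call was lost on leaving out any library (edgeR adjusted p up to 0.182). The Pola1 call was lost on leaving out any library other than WT 3 (up to 0.103). With the block 4 of these genes rose and 3 fell, beside 16.7% of all tested genes that rose and 13.8% that fell in that fit.

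Set per kilobase of the longest annotated transcript, the levels spanned a wide range. Trim28 was the highest, at 210.5 to 248.5 CPM per kb over the 6 libraries, followed by Uhrf1 at 91.6 to 100.4 and Cbx3 at 52.2 to 67.3, and no library of 1 of these genes reached the range of the next. Cbx1, Atrx, Smchd1, Cbx5, Morc3 and Daxx followed between 23.9 and 36.2 CPM per kb, and each of them overlapped its neighbour in this order. Mphosph8 was the lowest, at 12.6 to 14.7 CPM per kb, below every value of Daxx. With the union of all annotated exons as the length, an alternative chosen after seeing the data, Trim28 and Uhrf1 were again the highest, at 179.8 and 80.2 CPM per kb, but Cbx3, at 29.4 in place of 60.2, no longer stood apart from Cbx5 at 29.0. Cbx1 was at 18.4 in place of 32.99 CPM per kb and Atrx at 14.9 in place of 31.6. Smchd1 was the lowest, at 10.8 CPM per kb in place of 30.5.

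**Figure D4:**
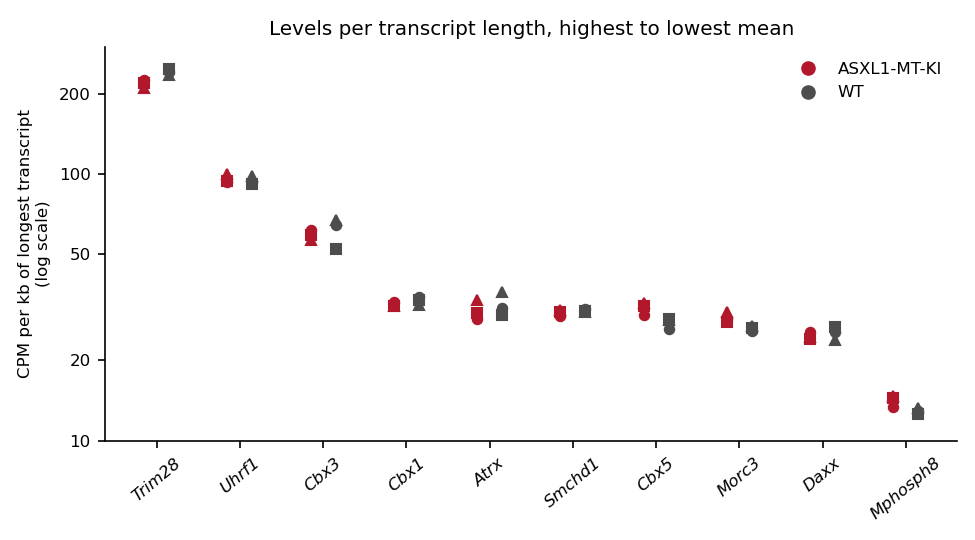
CPM per kilobase of the longest transcript (vertical axis, logarithmic) for the 10 genes in order of mean level, with ASXL1-MT-KI libraries at the left and WT libraries at the right of each position and the symbol shapes giving library numbers 1 (circle), 2 (square) and 3 (triangle). With this length Trim28, Uhrf1 and Cbx3 stand apart at the top and Mphosph8 at the bottom.

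Genes that work with these 10 were taken from 7 lists of H3K9 methyltransferases, HUSH and other MORC proteins, KAP1 partners, HP1 partners, H3.3 and its chaperones, PML bodies and DNA methylation. Of 84 distinct tested genes 5 rose and 6 fell in ASXL1-MT-KI, together 13.1%, beside 8.29% of all tested genes that rose and 7.69% that fell. The median log2 fold change was -0.039, against 0.00090 over all tested genes and -0.046 over the 3387 with the highest mean CPM. The blocked fit called 9 higher and 16 lower, where 16.7% of all tested genes were higher and 13.8% lower. Total counts gave 7 higher and 4 lower, where 11.5% of all tested genes were higher and 5.66% lower. Of the 3387 genes with the highest mean CPM, 64 rose and 366 fell in the main fit. With the block 261 of those genes rose and 755 fell.

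A HUSH subunit gene rose. Fam208a encodes TASOR, the scaffold of the HUSH complex to which MPP8 belongs. It was at 26.2, 31.1 and 30.0 CPM in ASXL1-MT-KI, against 18.3, 18.5 and 22.2 CPM in WT, without overlap (log2 fold change 0.57 ± 0.098, edgeR adjusted p = 0.00468), and it passed on leaving out any library. The third HUSH subunit gene, Pphln1, had a log2 fold change of -0.077 and did not pass (edgeR adjusted p = 0.327). So of the HUSH subunit genes Fam208a rose, while the estimates for Mphosph8 and Pphln1 had opposite signs and neither passed. In the list of 6 HUSH and MORC genes 4 were tested, 1 rose and none fell by edgeR, DESeq2 or limma-voom, with 2 in the list at an unadjusted p under 0.05. With the block Morc4 rose as well (edgeR adjusted p = 0.076; 0.0192 with the block).

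Atf7ip and Atf7ip2 encode cofactors of the KAP1-recruited methyltransferase SETDB1, and they differed in opposite directions. Atf7ip, the abundant one, was at 82.8 ± 3.77 CPM in ASXL1-MT-KI and 96.4 ± 5.72 CPM in WT (SD, n = 3 each; log2 fold change -0.22, edgeR adjusted p = 0.0362). That call was lost on leaving out any library other than ASXL1-MT-KI 3 and WT 1 (adjusted p up to 0.123) and with total counts (0.108). Atf7ip2 was close to silent, with 19, 17 and 19 counts in ASXL1-MT-KI, against 4, 2 and 3 counts in WT. Its log2 fold change was 2.54 ± 0.41 (edgeR adjusted p = 0.00335). It met the minimum count of 10 only through the ASXL1-MT-KI libraries, and a filter at 1 CPM in 3 libraries removed it, which left 0 genes of this list higher and 1 lower. Setdb1 itself had a log2 fold change of 0.063 and did not pass (edgeR adjusted p = 0.443). In the list of 9 H3K9 methyltransferase genes no other member passed, and the median was -0.02.

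Of 22 KAP1 partners 3 fell and none rose by edgeR, DESeq2 or limma-voom, with a median of -0.078. That is 13.6% of the list, beside 16.0% of all tested genes. At an unadjusted p under 0.05 there were 6 in either direction, beside 30.4% of all tested genes. Gatad2b, a subunit of the NuRD deacetylase complex, was at 46.3 ± 2.59 CPM in ASXL1-MT-KI and 57.5 ± 0.949 CPM in WT (log2 fold change -0.31, edgeR adjusted p = 0.00635). Senp6, a protease that trims SUMO chains, fell by 0.20 on the log2 scale and Zfp91 by 0.21 (edgeR adjusted p = 0.0138 and 0.0157), calls that were both lost when ASXL1-MT-KI replicate 2 was left out (0.0724 for Senp6 and 0.0703 for Zfp91) or WT replicate 1 was (0.056 for Senp6 and 0.0663 for Zfp91). Whether Zfp91 acts with KAP1 is not shown by these data. With the block 7 of the 22 fell and 0 rose, beside 13.8% of all tested genes that fell in that fit and 16.7% that rose. Falls outnumbered rises among the 3387 tested genes with the highest mean CPM, with 366 against 64, and 755 against 261 with the block. Of 15 tested HP1 partners 2 rose. Cdyl2, a chromodomain protein that binds methylated H3K9, was at 17.7 ± 0.866 CPM in ASXL1-MT-KI and 12.8 ± 1.03 CPM in WT (log2 fold change 0.47, edgeR adjusted p = 0.0058). Mis12, a kinetochore protein that binds HP1, was at 33.2 ± 4.56 CPM in ASXL1-MT-KI and 23.9 ± 1.23 CPM in WT (log2 fold change 0.47, edgeR adjusted p = 0.0117), a call lost without WT replicate 1 (0.0633). The blocked fit called 4 HP1 partners higher and 2 lower, Pogz (adjusted p = 0.023) and Hmgb1 (0.0493). Total counts gave 4 higher and 0 lower, where 11.5% of all tested genes were higher and 5.66% lower.

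Of the genes for the histone that ATRX and DAXX deposit, H3f3b fell. This gene, 1 of the 2 that encode H3.3, was at 1019, 972.7 and 921.3 CPM in ASXL1-MT-KI, against 1405, 1229 and 1187 CPM in WT. The groups did not overlap (log2 fold change -0.39 ± 0.069, edgeR adjusted p = 0.00514), and the call held on leaving out any library. H3f3a, the other H3.3 gene, had a log2 fold change of -0.049 and did not pass (edgeR adjusted p = 0.645). Both H3.3 genes have close processed copies, so their counts are uncertain. Ubn1, a subunit of the HIRA complex that deposits H3.3 at active genes, fell by 0.17 on the log2 scale (edgeR adjusted p = 0.0262). That call was lost on leaving out any library other than WT 3 (up to 0.094) and with total counts (0.0961). The other 8 tested genes of this list of 10 did not pass, and the list median was -0.048. With the block Asf1b, a chaperone of newly made H3, rose (edgeR adjusted p = 0.213; 0.0344 with the block).

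In the PML body list 0 of 9 genes passed by edgeR, DESeq2 or limma-voom, and 2 had an unadjusted p under 0.05. With the block 2 fell, beside 13.8% of all tested genes in that fit. These 2 were Sp110 (log2 fold change -0.14, edgeR adjusted p = 0.0919; 0.0134 with the block) and Hipk2 (-0.16, edgeR adjusted p = 0.132; 0.0351 with the block). In the DNA methylation list 1 of 17 passed. This was Zbtb4, a zinc finger protein that binds methylated CpG, at 9.16 ± 0.54 CPM in ASXL1-MT-KI and 5.54 ± 1.09 CPM in WT (log2 fold change 0.73, edgeR adjusted p = 0.00879). With the block the DNA methyltransferase genes Dnmt3a (log2 fold change -0.15, edgeR adjusted p = 0.192; 0.015 with the block) and Dnmt3b (-0.18, edgeR adjusted p = 0.0666; 0.0093 with the block) fell as well. Dnmt1, the enzyme that UHRF1 calls in, had a log2 fold change of -0.05 and did not pass (edgeR adjusted p = 0.495).

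**Figure D5:**
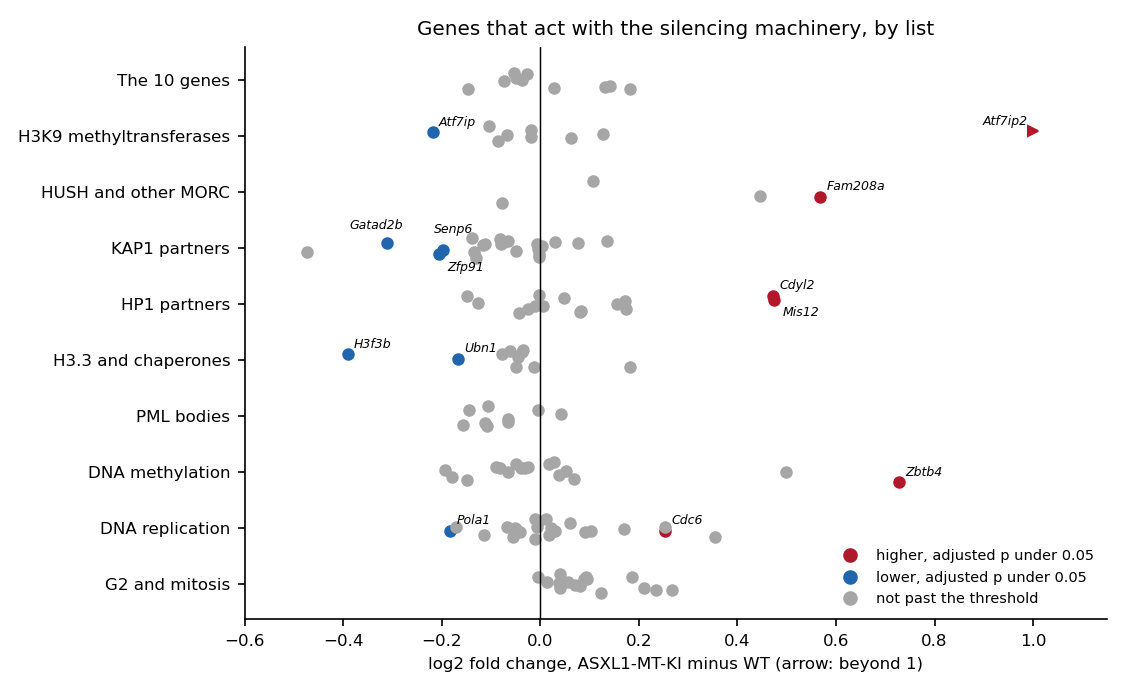
Log2 fold change, ASXL1-MT-KI minus WT (horizontal axis), of the 10 genes (top) and of the tested members of 9 lists, 1 point per gene, with Atf7ip2 drawn as an arrow at the edge since its value of 2.54 lies beyond 1. None of the 10 genes passes the threshold, and the named genes in colour do.

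Germline genes and clustered protocadherins, which this machinery is known to silence, were mostly not expressed in either genotype. Of 25 germline genes 3 had enough counts to be tested and 0 passed by edgeR, DESeq2 or limma-voom, also at an unadjusted p under 0.05. Ddx4, a germ cell helicase, was at 2.67 ± 0.0728 CPM in ASXL1-MT-KI and 2.58 ± 0.446 CPM in WT (edgeR adjusted p = 0.886). Brdt, a testis bromodomain gene, was at 0.605 ± 0.0669 CPM in ASXL1-MT-KI and 0.762 ± 0.164 CPM in WT (edgeR adjusted p = 0.427). Of 57 clustered protocadherins 14 were tested and 1 rose: Pcdhgc3 was at 6.41 ± 0.251 CPM in ASXL1-MT-KI and 3.50 ± 0.419 CPM in WT (log2 fold change 0.88, edgeR adjusted p = 0.00221). Genes of this cluster share their last exons, so counts can be split among them. Transposon transcripts were not analysed here.

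Markers of some cell types differed between the genotypes. Summed mast cell, basophil and eosinophil markers were at 219.6 to 488.6 CPM in ASXL1-MT-KI, against 509.6 to 592.7 CPM in WT, with 0 of 8 past the threshold by edgeR, 3 by DESeq2 and 4 by limma-voom and 3 at an unadjusted p under 0.05. The largest parts of the sum were Prg2 and Epx, at means of 196.1 and 66.6 CPM over the 6 libraries. Neither passed by edgeR (adjusted p = 0.223 and 0.124) or with the block (0.272 and 0.223). The estimate was above 0 for 1 of the 8, Fcer1a (log2 fold change 0.12), and was -0.042 for Mcpt8. With the block 3 of the 8 fell, Cpa3, Gzmb and Ms4a2. Red cell markers were at 1975 to 2714 CPM in ASXL1-MT-KI, against 1400 to 2298 CPM in WT. Of these 11 genes 1 passed, Slc4a1, and 10 rose with the block. Over all tested genes 16.0% passed and 30.5% did with the block, shares to set beside every marker list here. Among 9 genes of progenitors, Runx1, Cd34 and Ptprc fell and Myb rose, with Ptprc past the threshold in 3 and Myb in 2 of the 6 fits that leave out a library. In the G2 and mitosis list 15 of 16 estimates were above 0, with a median of 0.084. By edgeR, DESeq2 and limma-voom 0 of the 16 passed, and 1 had an unadjusted p under 0.05. With the block 5 rose, beside 16.7% of all tested genes in that fit. The part of these differences in the values of the 10 genes was not tested. Megakaryocyte markers had 2 of 7 lower, also with the block. Of 10 monocyte and macrophage markers 2 fell, Ccr2 and Ctss, and with the block C1qa, C1qb, C1qc and Cx3cr1 rose beside them. C1qa, C1qb and C1qc averaged only 0.61, 0.49 and 0.66 CPM over the 6 libraries. Without the block their edgeR adjusted p was 0.334, 0.185 and 0.409. Of 6 B cell markers 3 fell, Cd79a, Vpreb1 and Igll1, which averaged only 1.65, 0.74 and 0.66 CPM over the 6 libraries. The blocked fit called 5 lower and 1 higher, Cd79b, the most abundant of the 6 at 18.7 CPM. The summed B cell markers overlapped, at 21.2 to 24.1 CPM in ASXL1-MT-KI, against 21.6 to 25.0 CPM in WT. Of 7 stroma and endothelium markers 1 fell, Pecam1 (edgeR adjusted p = 0.0421), a call lost by limma-voom (0.0501), with total counts (0.12) and on leaving out any library other than WT 2 (up to 0.128). Mature neutrophil markers had 0 of 7 and T and NK cell markers 0 of 3 past the threshold by edgeR, DESeq2 or limma-voom, with 0 and 1 at an unadjusted p under 0.05. With the block 4 neutrophil markers rose (Camp, S100a8, S100a9 and Ngp), and of the T and NK cell markers Cd4 rose and Klrb1c fell. The neutrophil markers Ltf, Mmp8 and Cxcr2 had estimates below 0 in that fit (log2 fold change -1.86, -0.45 and -0.093) and did not pass. Counts per library ran from 10 to 219 for Camp and from 24 to 186 for Ngp.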

How the data were processed

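RNA of 6 LK cell libraries, 3 per genotype, was read as 124 bp paired-end reads. The authors deposited 1 table of counts per gene symbol. The reads were aligned with HISAT2 2.0.4 to mm10, per the submitters' processing notes. No counting tool or annotation is given in the sources used here, nor how reads with several matches were treated. Of 24421 rows 6240 held 0 in every library and 13548 passed filterByExpr (minimum count 10).

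Counts were scaled by TMM (factors 0.972 to 1.03) and tested with edgeR 4.0.16 (robust quasi-likelihood, genotype as the term) in R 4.3.3, with Benjamini-Hochberg adjustment over all tested genes. Alternatives were a replicate block, total counts, DESeq2 1.42.0 and its size factors, limma-voom 3.58.1, other filters, a threshold of 0.10, leaving out each library and leaving out number 3. The steps were tested on simulated data. Library numbers come from the titles. Deviations from the group means correlated at 0.253, 0.162 and 0.391 between libraries numbered 1, 2 and 3 alike, all over 0.1. Equal numbers were therefore treated as pairs in the blocked fit, while the main fit did not pair libraries. ASXL1-MT-KI 1 and WT 2 also correlated at 0.163. Positions and transcript lengths came from GENCODE M21, whose symbols matched 96.1% of tested genes, and promoters from RefSeq.

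The 10 genes and the 20 lists were chosen with earlier results of these data known. From each list, up to 4 genes past the threshold with the smallest p, or otherwise the 2 with the smallest p, were candidates to be named. Asxl1 was named as the targeted gene. Other genes named (single markers, those called only with the block, Setdb1, Pphln1, H3f3a, Dnmt1 and the back-to-back neighbours) were named for their roles, positions or calls, after results were seen.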

Additional observations from a re-analysis of the deposited data

How the results depend on the processing

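With the replicate block 4132 genes were called, against 2165 without it, which is 30.5% and 16.0% of all tested genes. Of the 10 genes 3 were called, against 0. Of the 208 distinct tested genes of the 20 lists 77 were called, against 27 (13.0%) without the block. Among the 10 genes the block changed no call other than those of Cbx5, Morc3 and Trim28. Of the 10 genes, total counts called 2 (Cbx5 and Morc3), DESeq2 called 2 (Cbx5 and Trim28) and an adjusted p under 0.10 called 2 (Cbx5 and Trim28). The shares of all tested genes were 17.2%, 17.6% and 23.0%. The threshold of 0.10 called 41 of the 208 list genes. Leaving out 1 library gave 1128 to 2257 genes called, 0 to 2 of the 10 genes and 15 to 34 list genes. The lowest counts, 1128 and 15, came without WT replicate 1, and without ASXL1-MT-KI replicate 2 they were 1143 and 17. Without ASXL1-MT-KI replicate 1, 1388 genes were called. Total counts called 1562 genes higher and 767 lower, against 1123 and 1042. Of 140 recomputed fold changes of the 10 genes, 124 kept their sign and side of the threshold, 9 newly passed and 7 changed sign. With total counts the log2 fold change was 0.0012 for Cbx3, 0.015 for Daxx and 0.026 for Smchd1. With number 3 left out it was 0.053 for Cbx3, the Cbx3 share differed by 0.345 percentage points and the log2 ratio of Atrx to Daxx by 0.015. Leaving out 1 library gave -0.15 to 0.023 for Cbx3, -0.14 to 0.013 for Atrx, -0.0093 to 0.056 for Uhrf1 and -0.14 to 0.088 for the ratio. The cause was not tested. The 95% intervals give the precision that 3 libraries a group allowed.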

Other observations

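Library number 3 differed from numbers 1 and 2 alike in both genotypes for some of the 10 genes. On the log2 scale, Atrx in library 3 stood above the mean of libraries 1 and 2 by 0.19 in ASXL1-MT-KI and 0.25 in WT, and Uhrf1 by 0.095 in ASXL1-MT-KI and 0.087 in WT. For Cbx3 the same difference was -0.09 in ASXL1-MT-KI and 0.22 in WT.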
